A study of Mus musculus with 9 samples.

Results

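The mRNA of 10 genes tied to iron recycling by splenic red pulp macrophages was measured in sorted CD11c+ spleen cells of leukemic and healthy mice. Red pulp macrophages were not themselves a sorted group. The members were chosen by name as rows of a gene-level RNA-seq table, and all 10 were found among its 54532 genes. They were Spic, Hmox1, Blvrb, Slc40a1, Slc11a1, Fth1, Ftl1, Tfrc, Vcam1 and Fcna. All 10 also belonged to the 12746 genes that passed the filter on low values, which asked for 1 FPKM or more in 3 or more of the 9 samples.

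The study sorted cells from the spleens of female C57BL/6J or C57B6.SJL mice, 6 to 8 weeks old per its methods, in 3 groups of 3 samples. N-mDCs were mature conventional dendritic cells (cDCs) of healthy mice without treatment. T-mDCs were mature cDCs of mice with T-ALL, a T-cell acute lymphoblastic leukemia. T-DCs were CD11c+MHCIIlo cells of mice with T-ALL, labelled immature DCs. The leukemia was driven by the intracellular domain of Notch1 (ICN1), carried with GFP by the retrovirus MSCV-ICN1-IRES-GFP in c-kit+ bone marrow cells, and the recipients of the leukemic cells were not irradiated. Red cells were lysed with ammonium chloride in all groups before CD11c+ cells were enriched and sorted. The labels do not say whether the samples of a group came from separate mice, so p-values measure the spread between samples, which may be partly technical.

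Red pulp macrophages engulf aged red cells. Heme oxygenase opens the heme ring and releases its iron. Biliverdin reductase A, whose gene Blvra is not a member, converts the product to bilirubin. Ferroportin exports iron from the cell, and ferritin stores what is kept. Cells that build heme, above all erythroblasts, take up transferrin-bound iron through the transferrin receptor instead. The transcription factor SpiC is needed for red pulp macrophages to form, and heme relieves its gene and the heme oxygenase gene from the repressor Bach1. Iron regulatory proteins bind a hairpin, the iron-responsive element, in the untranslated region (UTR) of several of these mRNAs. In a 5′ UTR the bound protein blocks translation, and in a 3′ UTR it protects the mRNA from decay.

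Reads on genes ranged from 15360815 to 18440913 per sample, and 335 to 51040 reads stood behind each member's value. Several libraries stood apart within their groups. T-mDC samples 2 and 3 were nearly alike: a chi-square of their reads over genes with 40 to 400 summed reads came to 1.85 per gene, against 7.89 to 36 for all other pairs within a group. A value of 1 is what counting noise would give, so both were kept as samples. T-DC samples 2 and 3 had summed FPKM of 59265 and 43650 over 14 erythroid markers, against 629 in T-DC sample 1 and 16.6 to 5384 in the other 6 samples. The dendritic label of the T-DCs was checked against 10 cDC markers, whose summed FPKM was 92.5 to 313 in T-DCs and 522 to 708 in the cDC groups. Itgax, which encodes CD11c, was at 42.9 to 152 FPKM in T-DCs.

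Iron-responsive elements are shown because they set apart the members for which iron acts on the mRNA. They were searched on the transcript strand of the annotated UTRs of GENCODE M21 (GRCm38) as a C, then any 5 bases, then the loop CAGTGN, with 5 paired stem bases on its sides and G-T pairs allowed. Such a match lay in the 5′ UTR of 31 of 20580 genes (0.151%) and in the 3′ UTR of 129 of 20962 genes (0.615%). Of the members, Fth1, Ftl1 and Slc40a1 held 1 in the 5′ UTR and Tfrc held 4 in the 3′ UTR. The capitals mark the 6 bases of the loop.
Fth1 5′ UTR, chr19:9982734-9982758, plus strand: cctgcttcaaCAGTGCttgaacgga
Ftl1 5′ UTR, chr7:45459781-45459805, minus strand: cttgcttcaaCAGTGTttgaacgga
Slc40a1 5′ UTR, chr1:45925467-45925491, minus strand: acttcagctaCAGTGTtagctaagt
Tfrc 3′ UTR, chr16:32631221-32631245, plus strand: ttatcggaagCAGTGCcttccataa
Tfrc 3′ UTR, chr16:32631600-32631624, plus strand: ttatcgggagCAGTGTcttccataa
Tfrc 3′ UTR, chr16:32631665-32631689, plus strand: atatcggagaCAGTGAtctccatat
Tfrc 3′ UTR, chr16:32631712-32631736, plus strand: ttatcgggaaCAGTGTttcccataa
A match is a description of the letters and no measure of binding. The 4 Tfrc elements lie in the same 3′ UTR. No match in the other 6 members says only that these letters are not in their annotated UTRs.

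Levels are given as FPKM, fragment counts divided by gene length and sequencing depth, and differences as log2 fold changes of FPKM + 1 with the limma p-value adjusted over all 12746 genes. Ferritin led the members in every sample, with Fth1 above Ftl1 and the lowest Fth1 value at 1074 FPKM. In all 3 comparisons together, 1 of 30 member tests passed the adjusted threshold of 0.05. That was Blvrb, which was higher in T-DCs than in T-mDCs. Of all tested genes, 16.4% passed in T-DCs against N-mDCs, 14.2% in T-DCs against T-mDCs and 2.21% in T-mDCs against N-mDCs. The median member difference was -0.51 in T-DCs against N-mDCs, 1.03 in T-DCs against T-mDCs and -1.61 in T-mDCs against N-mDCs, against 0.05, 0.07 and 0.03 over all tested genes. The comparisons share groups, so these medians are not independent of each other.

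**Figure D1:**
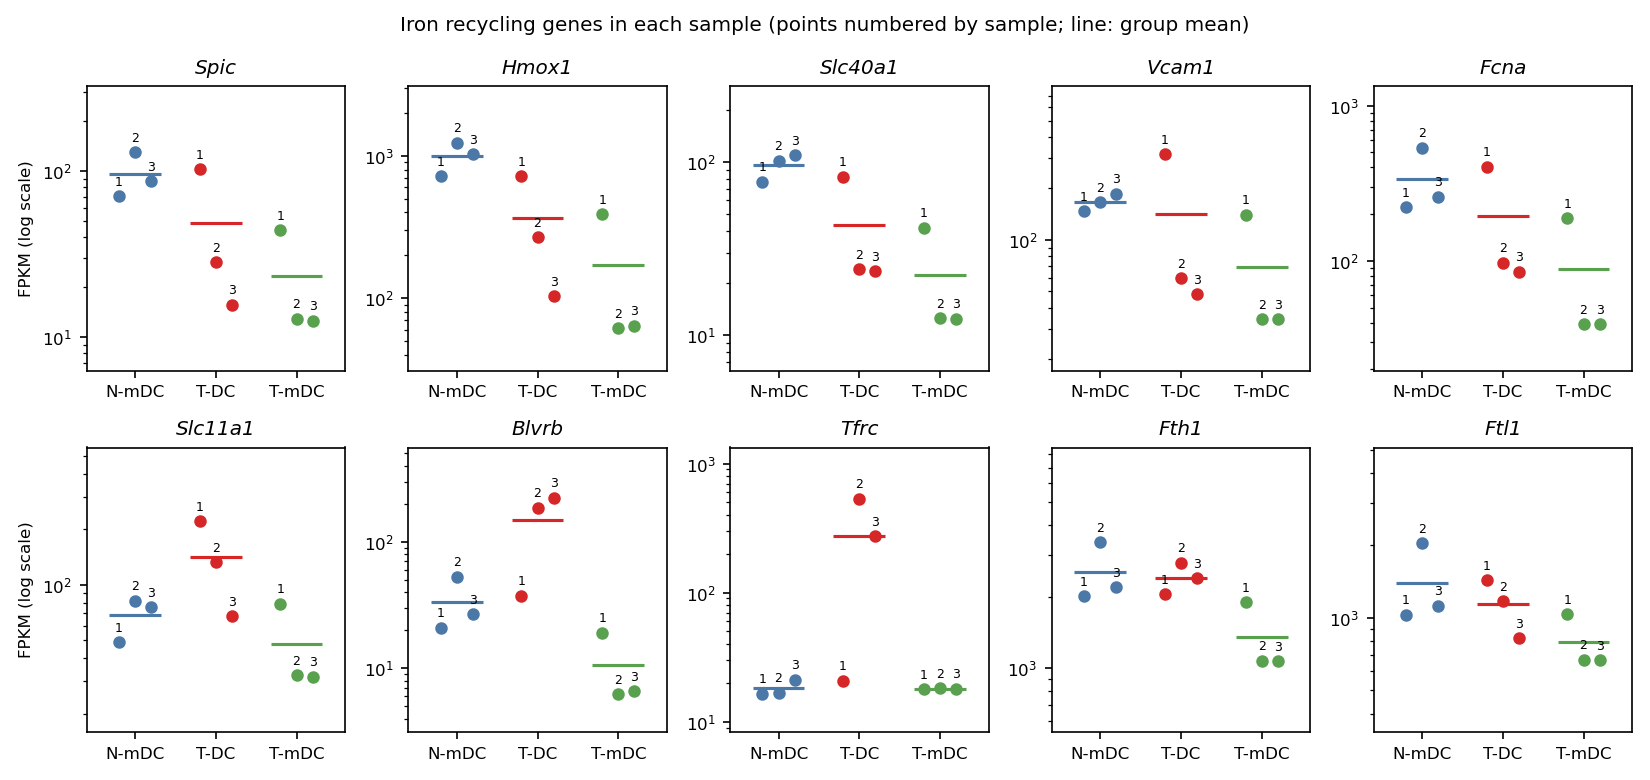
FPKM of the 10 iron recycling genes on log axes in N-mDCs (blue), T-DCs (red) and T-mDCs (green), with each point numbered by its sample and a line at the group mean. In T-DC sample 1, Spic, Hmox1, Slc40a1, Vcam1 and Fcna lay above T-DC samples 2 and 3, while Blvrb and Tfrc lay below them.

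T-DCs were set against N-mDCs to ask how the CD11c+MHCIIlo cells of leukemic spleens differ from mature cDCs of healthy spleens. None of the 10 members passed the adjusted test, against 16.4% of all tested genes in either direction. At an unadjusted p under 0.05 there were 3 (Blvrb, Slc40a1 and Tfrc), beside 35.1% of all tested genes. Only for Hmox1 did the T-DC and N-mDC samples not overlap, with T-DCs lower, a pattern that 16.4% of all tested genes showed. Without T-DC sample 1, 5 members passed: Spic at -2.08, Hmox1 at -2.54, Slc40a1 at -1.96, Blvrb at 2.67 and Tfrc at 4.33. In that fit 39.5% of all tested genes passed. In these bulk samples, fewer cells of a type and less RNA per cell cannot be told apart.

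T-DCs and T-mDCs both came from leukemic mice, so their comparison sets MHCIIlo cells beside mature cDCs of the same disease. There 1 of 10 members was called, against 14.2% of all tested genes (5.44% higher in T-DCs), and 4 were under an unadjusted p of 0.05 (Blvrb, Slc11a1, Fth1 and Tfrc), beside 30.1% of all tested genes. Every member's log2 fold change was above 0, from 0.53 for Ftl1 to 3.50 for Blvrb. All 3 T-DC samples lay above all 3 T-mDC samples for Blvrb, Fth1 and Tfrc, as for 16.8% of all tested genes.

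T-mDCs against N-mDCs compares mature cDCs with and without leukemia. None of the members was called, against 2.21% of all tested genes, and 7 had an unadjusted p under 0.05 (Spic, Hmox1, Blvrb, Slc40a1, Fth1, Ftl1 and Fcna), as did 16.7% of all tested genes. For 7 members all T-mDC samples lay below all N-mDC samples, as for 15.7% of all tested genes. These were Spic, Hmox1, Blvrb, Slc40a1, Fth1, Vcam1 and Fcna. Without T-DC sample 1, which is in neither group but shares in the spread, Spic, Hmox1 and Slc40a1 passed, beside 8.02% of all tested genes. Without T-mDC sample 1, Hmox1 and Slc40a1 passed, beside 2.35%.

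**Figure D2:**
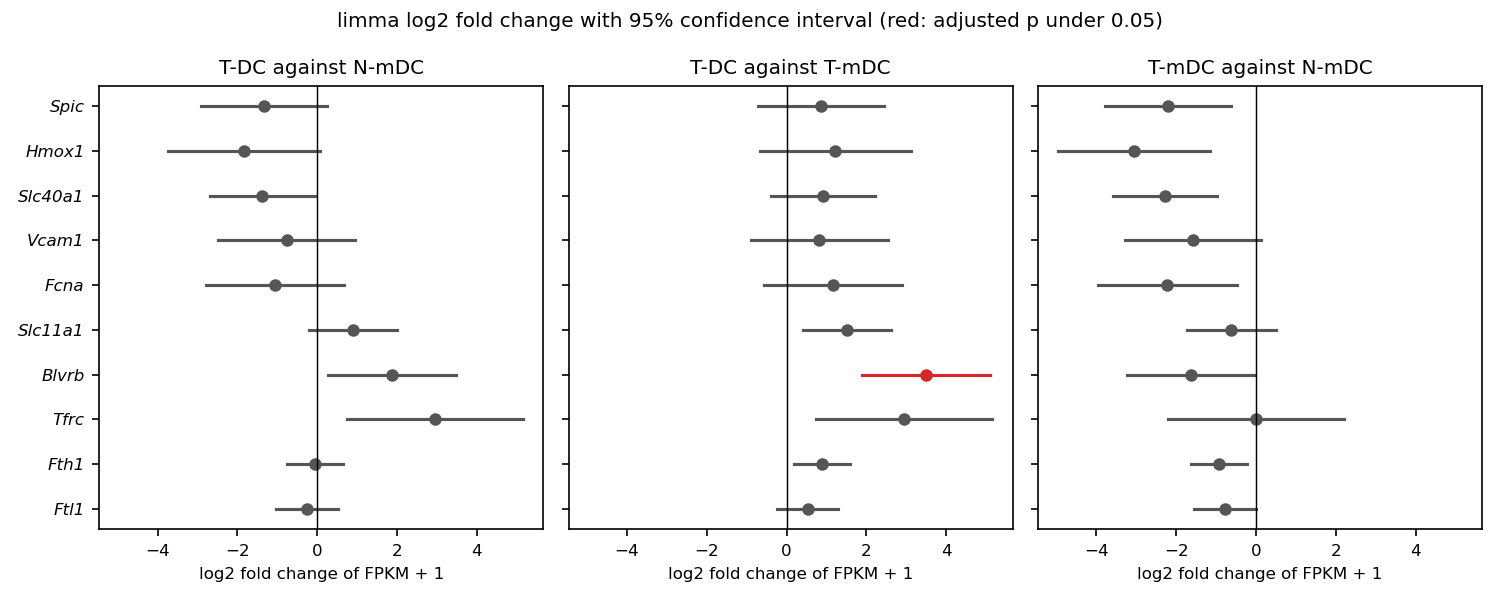
Log2 fold change of FPKM + 1 for each gene (points) with its 95% confidence interval (lines) in the 3 limma comparisons of 3 against 3 samples, with red where the adjusted p was under 0.05. Only Blvrb in T-DCs against T-mDCs, at 3.50, is red.

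Spic encodes the transcription factor SpiC that red pulp macrophages depend on, and lies on the minus strand at chr10:88674772-88685015 (mm10). Its level in N-mDCs was 70.4, 130.0 and 87.2 FPKM, with values here and below in the order of sample numbers. T-DCs held 102.9, 28.4 and 15.7 FPKM and T-mDCs 44.1, 12.9 and 12.5. T-DC sample 1 lay among the N-mDCs, T-DC samples 2 and 3 lay below them, and so did every T-mDC sample. The log2 fold change was -1.34 (SE 0.69, limma adjusted p = 0.200) for T-DCs and -2.20 (SE 0.69, adjusted p = 0.158) for T-mDCs against N-mDCs. Between T-DCs and T-mDCs it was 0.86 (adjusted p = 0.438).

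Hmox1 encodes heme oxygenase 1, the inducible enzyme that opens heme, and lies at chr8:75093621-75100589 on the plus strand. It was at 719, 1238 and 1022 FPKM in N-mDCs, with a mean of 993 ± 261 (SD, n = 3). In T-DCs it was at 719, 267 and 103 FPKM, and in T-mDCs at 388, 61.5 and 63.9 FPKM. The highest T-DC sample came just under the lowest N-mDC sample, so the groups did not overlap, while T-DCs and T-mDCs did. The limma log2 fold change against N-mDCs was -1.84 (SE 0.83, adjusted p = 0.153) in T-DCs and -3.06 (SE 0.83, adjusted p = 0.112) in T-mDCs. Between T-DCs and T-mDCs it was 1.22 (adjusted p = 0.362).

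Blvrb encodes biliverdin reductase B, which is abundant in erythroid cells as well, and lies at chr7:27447978-27466144 on the plus strand. N-mDC samples held 21.0, 53.0 and 26.8 FPKM, T-DC samples 37.4, 186 and 223, and T-mDC samples 19.1, 6.23 and 6.63. T-DC samples 2 and 3 were the highest of all, T-DC sample 1 was within the N-mDC range, and all T-mDC samples were below both other groups. T-DCs exceeded T-mDCs by 3.50 on the log2 scale (SE 0.70, 95% interval 1.90 to 5.10, limma adjusted p = 0.0147), with no overlap between the groups. This call held in 17 of 22 alternative settings. It was lost without T-DC sample 2, without T-mDC sample 2, without T-mDC sample 3, with T-mDC samples 2 and 3 averaged into 1 sample, and without T-DC samples 2 and 3 together, with adjusted p up to 0.141. Against N-mDCs the T-DC difference was 1.87 (SE 0.70, adjusted p = 0.0987) and the T-mDC difference -1.63 (adjusted p = 0.291).

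Slc40a1 encodes ferroportin, the iron exporter of the plasma membrane, and lies at chr1:45908068-45926523 on the minus strand. It was at 77.0, 101 and 110 FPKM in N-mDCs, 82.3, 24.1 and 23.4 in T-DCs, and 41.7, 12.6 and 12.5 in T-mDCs. As for Spic, T-DC sample 1 was within the N-mDC range and the other two T-DC samples were below it. The log2 fold change was -1.37 in T-DCs (SE 0.57, limma adjusted p = 0.126) and -2.27 in T-mDCs (SE 0.57, adjusted p = 0.0891), both against N-mDCs, and 0.90 between T-DCs and T-mDCs (adjusted p = 0.328).

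Slc11a1 encodes NRAMP1, a metal transporter of the phagosome membrane of macrophages, and lies at chr1:74375195-74386062 on the plus strand. N-mDC samples held 48.8, 82.2 and 75.8 FPKM, T-DC samples 222, 133 and 67.8, and T-mDC samples 79.1, 32.4 and 31.8. T-DC samples 1 and 2 were the highest of the 9, and all groups overlapped. T-DCs differed from T-mDCs by 1.51 (SE 0.49, limma adjusted p = 0.0728) and from N-mDCs by 0.89 (SE 0.49, adjusted p = 0.222), and T-mDCs from N-mDCs by -0.62 (adjusted p = 0.565).

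Fth1 and Ftl1 encode the ferritin heavy chain, which oxidises iron, and the light chain, which helps to lay it down in the shell. The table places Fth1 on the plus strand at chr19:9982703-9985092 and Ftl1 on the minus strand at chr7:45457944-45459884. Fth1 was at 2012, 3401 and 2194 FPKM in N-mDCs, 2048, 2787 and 2398 in T-DCs, and 1902, 1077 and 1074 in T-mDCs. T-DCs and N-mDCs overlapped, and T-mDCs lay below both. The log2 fold change of Fth1 was 0.88 in T-DCs against T-mDCs (SE 0.31, limma adjusted p = 0.0930) and -0.04 against N-mDCs (SE 0.31, adjusted p = 0.936), with a sign that changed under quantile normalization. In T-mDCs against N-mDCs it was -0.92 (adjusted p = 0.178).

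Ftl1 was at 1030, 2040 and 1124 FPKM in N-mDCs, 1433, 1174 and 822 in T-DCs, and 1037, 669 and 668 in T-mDCs. All groups overlapped. Against N-mDCs the log2 fold change was -0.26 in T-DCs (SE 0.34, limma adjusted p = 0.621), positive under quantile normalization, and -0.78 in T-mDCs (SE 0.34, adjusted p = 0.295). Between T-DCs and T-mDCs it was 0.53 (adjusted p = 0.336). The gene copy Ftl1-ps1 was at 10.7 to 75.9 FPKM, so a share of ferritin light chain reads could be placed on either.

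The ratio of Fth1 to Ftl1 FPKM was 1.95, 1.67 and 1.95 in N-mDCs and 1.84, 1.61 and 1.61 in T-mDCs. In T-DCs it was 1.43 in sample 1, 2.37 in sample 2 and 2.92 in sample 3. T-DC sample 1 thus had the lowest ratio of the 9 samples, and T-DC samples 2 and 3 the highest. Both genes together took 0.193% to 0.560% of the reads on genes, with T-mDC samples 2 and 3 at the low end and N-mDC sample 2 at the top.

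Tfrc encodes the transferrin receptor, the route of iron uptake, and lies at chr16:32608920-32632794 on the plus strand. It was at 16.5, 16.7 and 21.1 FPKM in N-mDCs, 20.7, 532 and 273 in T-DCs, and 17.8, 18.1 and 18.0 in T-mDCs. Apart from T-DC samples 2 and 3, the 7 other samples stayed between 16.5 and 21.1 FPKM. The log2 fold change of T-DCs was 2.95 against N-mDCs (SE 0.97, limma adjusted p = 0.0687) and 2.95 against T-mDCs (SE 0.97, adjusted p = 0.0768). T-mDCs and N-mDCs differed by 0.00, with a 95% interval from -2.20 to 2.20 that reflects the spread of the T-DCs.

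Vcam1 encodes an adhesion molecule that marks red pulp macrophages, and lies at chr3:116109949-116129688 on the minus strand. Fcna encodes ficolin A, a secreted lectin made by splenic macrophages, and lies at chr2:25624666-25628030 on the minus strand. Vcam1 was at 147, 167 and 186 FPKM in N-mDCs, 319, 59.6 and 48.1 in T-DCs, and 140, 34.2 and 34.2 in T-mDCs. The N-mDC values lay between T-DC sample 1 above and T-DC samples 2 and 3 below. Fcna was at 222, 535 and 259 FPKM in N-mDCs, 404, 97.3 and 85.3 in T-DCs, and 188, 39.2 and 39.3 in T-mDCs. For neither gene did a comparison pass: the limma log2 fold changes of T-DCs against N-mDCs were -0.76 for Vcam1 (SE 0.75, adjusted p = 0.500) and -1.06 for Fcna (SE 0.76, adjusted p = 0.349). Those of T-mDCs against N-mDCs were -1.58 (adjusted p = 0.335) and -2.22 (adjusted p = 0.188), and those of T-DCs against T-mDCs 0.81 (adjusted p = 0.499) and 1.16 (adjusted p = 0.343).

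T-DC sample 1 was then set beside T-DC samples 2 and 3. With 1 sample on one side this has no test, and the differences are described by their size on the log2(FPKM + 1) scale. Of the 10 members, 8 differed more than 2-fold between sample 1 and the mean of samples 2 and 3, with 6 higher and 2 lower in sample 1. Among all tested genes 23.8% did so, 10.8% higher and 12.96% lower. The difference was 2.55 for Vcam1, 2.23 for Spic, 2.13 for Fcna, 2.11 for Hmox1, 1.75 for Slc40a1 and 1.22 for Slc11a1. Spic, Hmox1, Slc40a1, Vcam1 and Fcna thus lay at the 99.07 to 99.95 percentile of all tested genes. The lower pair was Tfrc at -4.14 and Blvrb at -2.41. By order alone, sample 1 was above both others for 7 members (46.4% of all tested genes) and below both for Blvrb, Fth1 and Tfrc (38.7%).

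In FPKM, T-DC sample 1 held 5.91 times the mean of samples 2 and 3 for Vcam1, 4.67 times for Spic, 4.42 times for Fcna, 3.89 times for Hmox1 and 3.47 times for Slc40a1. That mean in turn was 19.4 times sample 1 for Tfrc and 5.46 times for Blvrb. Ferritin differed less, at 0.54 for Ftl1 and -0.34 for Fth1, the latter 0.07 when values were rescaled to TPM. Samples 2 and 3 were themselves apart by 1.37 for Hmox1, 0.96 for Slc11a1, 0.96 for Tfrc and 0.82 for Spic, and by at most 0.51 for the other members. For Ftl1, Slc11a1, Fth1 and Hmox1 the distance of sample 1 from their mean was less than 2 times that between samples 2 and 3.

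**Figure D3:**
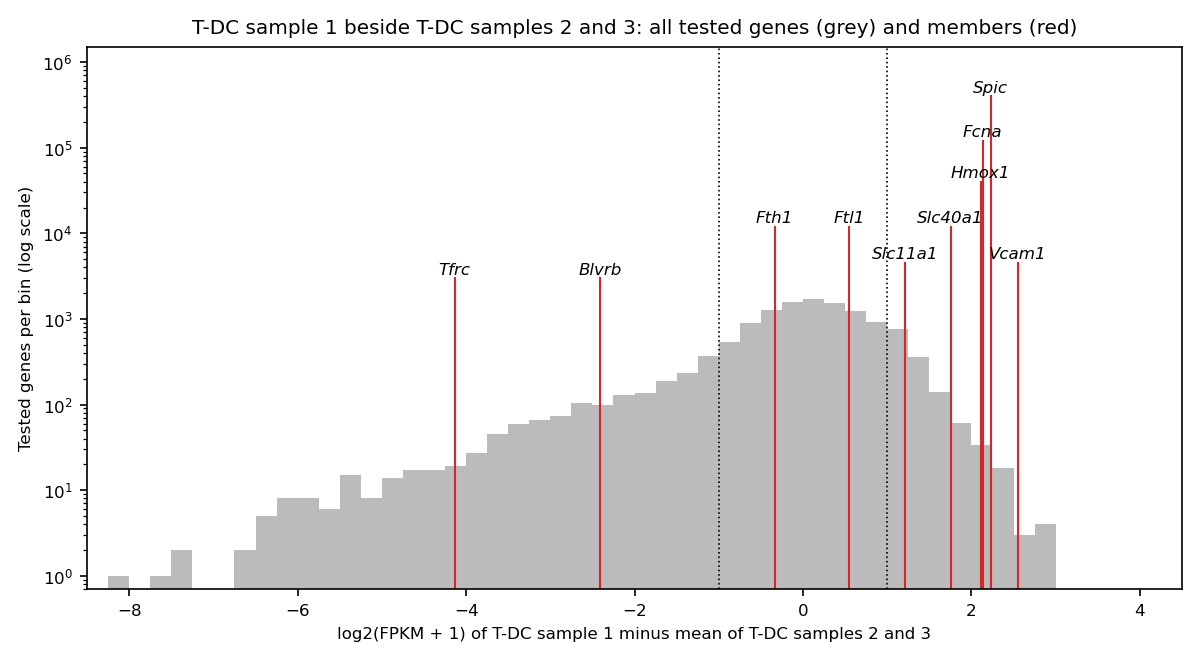
Histogram (log count axis) of log2(FPKM + 1) of T-DC sample 1 minus the mean of T-DC samples 2 and 3 over 12746 tested genes, with red lines at the 10 members and dotted lines at a 2-fold difference. Vcam1 at 2.55 sits at the upper end and Tfrc at -4.14 in the lower tail.

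Beside N-mDCs, T-DC sample 1 was within the N-mDC range for 7 members, above all N-mDC samples for Slc11a1 and Vcam1, and just below them for Hmox1. With T-DC samples 2 and 3 left out, the log2 fold change of the remaining T-DC sample against N-mDCs was 0.15 for Spic, 0.36 for Fcna and 0.94 for Vcam1, where the fit with all T-DC samples gave values below 0. No member passed the limma test in that fit, in which the lone sample was assumed to vary like the other groups.

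The T-mDC group had a like split. T-mDC sample 1 exceeded the mean of T-mDC samples 2 and 3 by 2.61 for Hmox1, 2.23 for Fcna, 1.72 for Spic and 1.66 for Slc40a1 on the log2 scale, and held 4.10 times that mean in FPKM for Vcam1. Blvrb at 1.43 and Slc11a1 at 1.28 were past 2-fold as well, and Fth1 at 0.82, Ftl1 at 0.63 and Tfrc at -0.02 were not. Over all tested genes, 5.39% were more than 2-fold higher in T-mDC sample 1. Blvrb was thus higher in sample 1 of the T-mDCs and lower in sample 1 of the T-DCs.

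The 13 red pulp macrophage markers were all above 0 in every sample. Like Spic, Hmox1, Slc40a1, Vcam1 and Fcna, all 13 were higher in T-DC sample 1 than in T-DC samples 2 and 3, and higher in T-mDC sample 1 than in T-mDC samples 2 and 3. Neither order was particular to macrophage markers. The T-DC order was also seen for 8 of 10 cDC markers and 46.4% of all tested genes, but for 0 of 14 erythroid and 0 of 8 neutrophil markers. The T-mDC order was also seen for all 14 erythroid and all 6 B-cell markers, but for 1 of 10 cDC and 0 of 8 neutrophil markers. The summed FPKM of the 13 macrophage markers was 1914, 3850 and 2336 in N-mDCs, 4190, 1501 and 985 in T-DCs, and 1768, 596 and 597 in T-mDCs. C1qb and C1qa, complement subunits made by macrophages, led the list. C1qb was at 821 FPKM in T-DC sample 1, 298 in sample 2 and 175 in sample 3, and C1qa at 659, 251 and 157. Of the 13 markers, Treml4 was the only one called in T-DCs against T-mDCs (1.57, limma adjusted p = 0.0305), beside 14.2% of all tested genes. None was called in the other comparisons. The Treml4 call was lost without N-mDC sample 3, T-DC sample 2 or either of T-mDC samples 2 and 3. The list's median log2 fold change was -0.76, 0.96 and -1.67 in the 3 comparisons in the order above. Unlike those 5 members, 4 of 13 had a log2 fold change above 0 in T-DCs against N-mDCs, none of them called: Treml4 (0.82), Csf1r (0.28), Cd5l (0.23) and Adgre1 (0.12). Treml4 was at 300.3, 164 and 112 FPKM in T-DCs and at 87.0 to 125 in N-mDCs. The part of macrophage content in the members' values was not tested.

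Marginal zone and metallophilic macrophages of the spleen carry Marco, Siglec1 and Cd209b. N-mDCs held 31.9 to 48.2 FPKM of their sum, T-DCs held 16.4 to 38.9 and T-mDCs 2.63 to 16.7. Siglec1 was lower than in N-mDCs by -1.62 in T-DCs and -2.26 in T-mDCs (limma adjusted p = 0.00637 and 0.00955), and Cd209b by -1.06 and -1.36 (adjusted p = 0.0156 and 0.0225). Marco did not pass in any comparison. Averaging T-mDC samples 2 and 3, or leaving either out, lost both T-mDC calls. Without any 1 of the N-mDC samples the T-mDC call of Cd209b was lost too, and its T-DC call did not hold when N-mDC sample 1 was left out or when T-DC sample 2 was.

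Erythroid markers were highest where Tfrc and Blvrb were: all 14 were higher in T-DC samples 2 and 3 than in each of the 7 other samples. That order was also seen for 7 of 8 neutrophil and 0 of 13 red pulp macrophage markers, and was not counted over all tested genes. All 14 erythroid markers were called higher in T-DCs than in T-mDCs, beside 5.44% of all tested genes. Against N-mDCs 5 of 14 were called higher, beside 778 of all 12746 tested genes. No erythroid marker was at 0 in any sample. Without T-DC sample 2 or 3, the count of erythroid markers called was 0 in either comparison. The count against T-mDCs was also 0 without T-mDC sample 2 or 3, 2 without N-mDC sample 3, and 9 without N-mDC sample 1 or 2 or T-mDC sample 1. The count against N-mDCs was 14 without T-DC sample 1, 0 without N-mDC sample 1 or 3, and 1 or 2 without N-mDC sample 2 or any T-mDC sample. The counts against T-mDCs and N-mDCs were 1 and 0 with no filter on low values, 0 and 0 with only the groups compared, 0 and 1 with T-mDC samples 2 and 3 averaged, and 4 and 1 with voom on whole reads. Hbb-bs, a beta-globin, was at 24936 and 16304 FPKM in T-DC samples 2 and 3 and at 255 in T-DC sample 1. Hba-a1, an alpha-globin, was at 20160, 15834 and 222 in the same order. Globin genes have near-identical copies, so the split of reads between copies is uncertain. N-mDC sample 2, with 2446 FPKM of Hbb-bs, had the highest Blvrb, Fth1 and Ftl1 of its group. It also had the group's highest Spic, Hmox1, Slc11a1 and Fcna, and the highest sum of the 13 red pulp macrophage markers (3850 FPKM). Its Tfrc level was like that of N-mDC sample 1. The part of erythroid RNA in the Tfrc and Blvrb values was not tested.

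**Figure D4:**
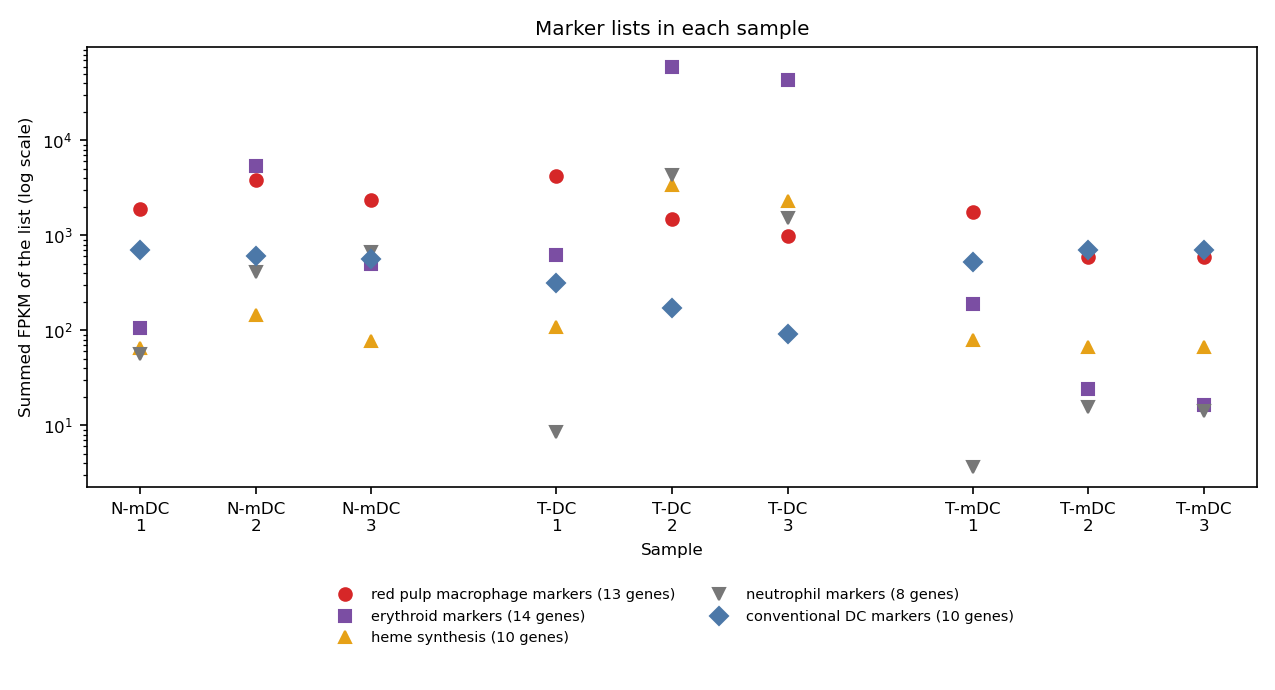
Summed FPKM of 5 marker lists (log axis) in each of the 9 samples. T-DC samples 2 and 3 lie at 59265 and 43650 for erythroid markers, far above the others, while the red pulp macrophage sum is highest in T-DC sample 1 at 4190.

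Heme synthesis genes were highest in the same samples as Tfrc, for 9 of 10, an order not counted over all tested genes. The exception was Alas1, the first enzyme in other tissues, at 9.37, 7.75 and 5.97 FPKM in T-DCs and -0.20 on the log2 scale against T-mDCs (limma adjusted p = 0.504). The summed FPKM of 9 enzymes of the pathway, both Alas isoforms included, and the mitochondrial iron importer Slc25a37 was 3425 and 2327 in T-DC samples 2 and 3 and 64.6 to 146 in the other 7 samples. In T-DCs against T-mDCs, 4 of 10 were called higher: Alas2, the erythroid first enzyme (6.75), Cpox (4.05), Fech, which inserts the iron (3.72), and Urod (3.17). Among all tested genes, 5.44% were called higher there. Against N-mDCs Cpox (4.28) and Fech (3.76) were called, beside 778 of all 12746 tested genes called higher. Adjusted limma p-values of the heme synthesis calls were 0.0319 to 0.0477. Cpox, Fech and Urod each held in only 9 or 10 of 22 alternative settings and lost their calls when most single libraries were left out, with T-DC sample 1 as the exception for all of them and T-mDC sample 1 for Fech against N-mDCs. The Alas2 call held in 12 of 22 and was lost without N-mDC sample 3, T-DC sample 2 or 3, or T-mDC sample 2 or 3.
The 5′ UTR of Alas2 holds an element of the same kind as Fth1 and Ftl1, shown for comparison on the GRCm38 build with the loop in capitals.
Alas2 5′ UTR, chrX:150547460-150547484, plus strand: ggttcgtcctCAGTGCagggcaaca

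Other genes of heme breakdown and heme transport numbered 9, of which 7 were tested. Called were 1 of 7 in T-DCs against N-mDCs and 2 of 7 against T-mDCs, beside 16.4% and 14.2% of all tested genes. Flvcr1, a heme exporter, was lower in T-DCs than in either other group. It was at 28.1 ± 11.9 FPKM in N-mDCs, 7.76 ± 1.71 in T-DCs and 34.9 ± 8.17 in T-mDCs (SD, n = 3). The log2 fold change was -1.65 against N-mDCs (limma adjusted p = 0.0173) and -2.03 against T-mDCs (adjusted p = 0.00853). All 3 T-DC samples were low, T-DC sample 1 at 9.20 FPKM included, so Flvcr1 did not follow the split of the T-DC samples. The call against N-mDCs was lost without N-mDC sample 1 or 3 or without T-DC sample 2 or 3, and the call against T-mDCs held without any single library. Slc48a1, which moves heme out of the phagolysosome, was higher in T-DCs than in T-mDCs by 1.57 (adjusted p = 0.0198), a call lost without T-DC sample 2 or 3 or T-mDC sample 2 or 3. No gene of this list was called in T-mDCs against N-mDCs.

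Among 19 other genes of iron transport, storage release and iron sensing, 15 were tested. Called were 4 of 15 in T-DCs against N-mDCs and 1 of 15 against T-mDCs, beside 16.4% and 14.2% of all tested genes. In T-DCs against N-mDCs, Cp, the ferroxidase ceruloplasmin (1.80, limma adjusted p = 0.0279), Slc11a2, the iron importer DMT1 (1.44, adjusted p = 0.0273), and Ncoa4, the receptor for ferritin turnover (1.28, adjusted p = 0.0273), were higher. Trf, which encodes transferrin, was lower (-1.67, adjusted p = 0.0457). Slc11a2 was at 7.27, 19.9 and 22.1 FPKM in T-DCs against 4.54 to 5.47 in N-mDCs, and Ncoa4 at 19.5, 28.9 and 19.2 against 4.91 to 11.3. Cp was high in T-DC samples 1 and 2, at 6.06 and 6.84 FPKM, and at 1.68 in T-DC sample 3. Each of the 4 calls was lost on leaving out N-mDC sample 1 or T-DC sample 2, and those of Cp, Slc11a2 and Trf also without N-mDC sample 2 or 3. The calls of Slc11a2, Trf and Ncoa4 were lost without T-DC sample 3, and that of Trf also without T-mDC sample 2 or 3.

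Steap3, the endosomal ferrireductase that works with the transferrin receptor, was higher in T-DCs than in T-mDCs (2.92, limma adjusted p = 0.0381). It was at 13.8 and 27.2 FPKM in T-DC samples 2 and 3 and at 1.21 in T-DC sample 1, and its call was lost on leaving out any 1 library other than T-DC sample 1. Tfr2, a second transferrin receptor, did not pass the filter and was at 13.9 and 37.8 FPKM in T-DC samples 2 and 3 against at most 0.26 elsewhere. Heph, an iron oxidase of the gut, was listed at 0 in all 9 samples. No gene of the list was called in T-mDCs against N-mDCs.

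Bach1, Nfe2l2, Keap1 and targets of NRF2, the oxidative stress factor that Nfe2l2 encodes and that also drives Hmox1, made up 9 genes, of which 8 were tested. Called were 1 of 8 in T-DCs against N-mDCs and 4 of 8 against T-mDCs, beside 16.4% and 14.2% of all tested genes. In T-mDCs against N-mDCs 1 of 8 was called, beside 2.21%. Nqo1, a quinone reductase, was higher in T-DCs against N-mDCs (3.32, limma adjusted p = 0.00914) and against T-mDCs (3.26, adjusted p = 0.0107). Its level was 3.67, 24.4 and 21.8 FPKM in T-DCs and 0.11 to 1.33 elsewhere. Gclm, a subunit of the glutathione synthesis enzyme (3.01, adjusted p = 0.0439), Srxn1 (1.23, adjusted p = 0.0149) and Nfe2l2 (1.01, adjusted p = 0.0251) were higher in T-DCs than in T-mDCs. Gclm was at 83.6 and 82.2 FPKM in T-DC samples 2 and 3 and at 6.08 in T-DC sample 1. Its call was lost on leaving out any 1 library other than T-DC sample 1. The T-mDC comparisons of Nqo1, Srxn1 and Nfe2l2 lost their calls without T-mDC sample 2 or 3, and those of Srxn1 and Nfe2l2 also without T-DC sample 2.

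Nfe2l2 was lower in T-mDCs than in N-mDCs (-1.18, limma adjusted p = 0.0441), at 16.9 to 24.4 against 35.2 to 54.5 FPKM, a call that held in 8 of 22 alternative settings. It was lost without any 1 N-mDC sample, T-DC sample 2, or T-mDC sample 2 or 3. Bach1 itself was at 10.1 to 37.8 FPKM over the 9 samples and was called in no comparison. Hmox1 at -1.84, not called, and Nqo1 at 3.32, called, had opposite signs in T-DCs against N-mDCs.

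Over the 9 samples the members fell into patterns, described here by the Pearson r of log2(FPKM + 1). The 9 points share libraries and include the split of the T-DC samples, so r reflects that split. Among Spic, Hmox1, Slc40a1, Vcam1 and Fcna, r between pairs was 0.92 to 0.98. Tfrc and Blvrb were at 0.83 with each other, and Tfrc was at -0.38 to -0.27 with those 5 genes. Blvrb was at 0.11 to 0.28 with the same 5 genes and at 0.81 with Fth1. Ftl1 was at 0.78 to 0.91 with the 5 genes, so the patterns were not cleanly apart.

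The tested genes most like each member over the 9 samples were then listed. For Spic they were Abcc3 (r = 0.993), Axl (0.989) and Ephx1 (0.986), and for Hmox1 they were Spic (0.984), Abcc3 (0.981) and Fam43a (0.981). Slc40a1 was most like Axl, Dysf and Slc45a3 (r from 0.987 to 0.988). Vcam1 was closest to P2ry13, Stab2 and Cd163 (r from 0.990 to 0.997), and Fcna to Pld3, C1qc and Tmem86a (r from 0.989 to 0.993). Axl, C1qc and Cd163 are themselves on the red pulp macrophage list.
Tfrc was most like Stradb, Tfdp2 and Slc25a37 (r from 0.997 to 0.998), the last of which imports iron into mitochondria for heme. Genes most like Blvrb included Ctsf (r = 0.991) and Epor (0.990), where Epor is the receptor for erythropoietin. Slc11a1 came closest to Gpx3, Adam15 and Laptm4a (r from 0.990 to 0.991). Fth1 was most like Cib1, Igkv1-88 and Slc48a1 (r from 0.969 to 0.982), and those most like Ftl1 included Dnase2a (0.977) and 4930455G09Rik (0.953).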

How the data were processed

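RNA-seq of 9 sorted samples, 3 per group, was analysed from 1 table. The authors deposited FPKM for 54532 genes with gene length, position and symbol, on mm10 per the labels; the aligner, counter, annotation and strand setting are not given in the sources used here. Whole reads came back from FPKM times gene length (within 0.001 of a read), and the largest sample size for scaling was 1.27 times the smallest. Gene positions of 9 of 10 members equal GENCODE M21; that of Fth1 differs.

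The 12746 genes that reached 1 FPKM in 3 or more samples were fitted as log2(FPKM + 1), all 3 groups together, by limma 3.58.1 (R 4.3.3) with a variance trend in eBayes, and p-values were adjusted by Benjamini-Hochberg with a threshold of 0.05. A fold change on this scale understates the change of low genes. T-DC sample 1 was compared with T-DC samples 2 and 3 without a test, with 2-fold as the mark. Other parameters were tried as alternatives.

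The members and lists were chosen with earlier results of these data known. Named were all 10 members; every called gene of the heme, iron, Bach1 and NRF2, and heme synthesis lists (at most 6 per list and comparison); the 2 markers of highest mean FPKM per marker list and any at 0 throughout; and the 3 genes most like each member, of which 2 are not reported here. Called macrophage markers and Itgax were also named. After their values were seen, Marco, Bach1, Alas1, Csf1r, Cd5l, Adgre1, Cd209a, Clec10a, Ccr2, Fcgr1 and Cx3cr1 were named as well. Among genes that did not pass the filter, Tfr2 was named in the same way. The labels do not say whether samples that share a number are paired, and the main fit did not treat them as pairs. No intervals from depth are given, since limma's errors cover the spread between samples.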

Additional observations from a re-analysis of the deposited data

How the results depend on the processing

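With 3 samples per group, the spread of the T-DCs limits every test. Of 12746 genes, 2096 were called between T-DCs and N-mDCs, 1813 between the T-DC and T-mDC groups, and 282 between both cDC groups. Leaving out 1 library, or T-DC samples 2 and 3 together, gave 746 to 5030, 541 to 4475 and 23 to 1022, and the other settings 1070 to 8485, 540 to 9923 and 23 to 3841. The settings were a pseudocount of 0.1, no filter, FPKM of at least 5, TPM, quantile normalization, median-of-ratios scaling, only the groups compared, array weights, no trend, voom on whole reads, a replicate block and T-mDC samples 2 and 3 averaged. Leaving out T-DC samples 2 and 3 was chosen after seeing the data.

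Members called in T-DCs against N-mDCs numbered 0, 8 with array weights (66.6% of all tested genes) and 0 to 5 without 1 library (5 without T-DC sample 1, with 39.5% of all). In T-DCs against T-mDCs there was 1 member called, with 2 under quantile normalization (14.2% of all), 10 with array weights (77.9%), 0 with T-mDC samples 2 and 3 averaged, 0 without T-DC samples 2 and 3, and 0 to 3 without 1 library (3 without T-mDC sample 1, with 14.3% of all; 0 without T-DC sample 2, T-mDC sample 2 or T-mDC sample 3). In T-mDCs against N-mDCs there were 0, with 1 in the fit of only the groups compared (Slc40a1, with 6.67% of all), 8 with array weights (30.1%), 1 without T-DC samples 2 and 3 (6.66%), and 0 to 3 without 1 library. Estimation of the array weights stopped before its tolerance was reached. The causes were not tested.

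The replicate block, for numbers shared by the labels, gave 0, 1 and 0 members and 1378, 1253 and 78 genes; correlations of same-numbered samples ran from -0.475 to 0.269. The 8 members past 2-fold in T-DC sample 1 stayed at 8 with a pseudocount of 0.1, TPM and median-of-ratios scaling, the alternatives run for it.

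Signs changed for small differences. Fth1 in T-DCs against N-mDCs was 0.28 with quantile normalization, 0.35 with array weights, 0.19 without N-mDC sample 2 and 0.068 without T-DC sample 1, and ran from -0.19 to 0.19 without 1 library. Ftl1 was 0.088 with quantile normalization, 0.051 with array weights and 0.11 without T-DC samples 2 and 3, and ran from -0.44 to 0.050 (without N-mDC sample 2). Without T-DC samples 2 and 3, Spic was 0.15, Vcam1 0.94 and Fcna 0.36. Vcam1 against T-mDCs ran from -0.035 (without T-DC sample 1) to 1.48 without 1 library. Tfrc in T-mDCs against N-mDCs was -0.014 with median-of-ratios scaling, -0.000638 with array weights, -0.00234 with the averaged samples, -0.058 and -0.050 without N-mDC sample 1 or 2, and -0.00392 and -0.000771 without T-mDC sample 2 or 3. The causes were not tested.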

Other observations

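Other cell types were measured beside the iron genes through lists of markers. Neutrophil genes were high in T-DC samples 2 and 3, with summed FPKM of 4327 and 1514 over 8 genes, and at 8.59 in T-DC sample 1. They were at 56.6 to 663 in N-mDCs and 3.63 to 15.6 in T-mDCs, and none of the 8 was called by limma in any comparison, with log2 fold changes of 0.26 to 2.63 in T-DCs against N-mDCs. S100a9, a calcium-binding protein of neutrophils, was at 1754 and 551 FPKM in T-DC samples 2 and 3 and at 5.03 in sample 1, and S100a8, its partner, at 970 and 348 against 2.33.

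Monocyte genes summed to 252, 669 and 340 FPKM in T-DCs, 105 to 303 in N-mDCs and 101 to 147 in T-mDCs. Between T-DCs and N-mDCs 3 of 7 were called, beside 16.4% of all tested genes. These were Ccr2, Fcgr1 and Ms4a4c, all lower in T-DCs. Chil3 (4.13) and Cx3cr1 (2.06) had log2 fold changes above 0 and were not called (limma adjusted p = 0.0708 and 0.0603). Beside T-mDCs 2 were higher and 1 was lower in T-DCs, against 14.2% of all tested genes in either direction. In T-mDCs 1 was lower than in N-mDCs, against 2.21%. Chil3, a chitinase-like protein, was at 108, 528 and 240 FPKM in T-DC samples 1 to 3 and at 0.63 to 68.1 in N-mDCs. Ms4a4c was at 28.1, 46.7 and 28.0 FPKM in T-DCs and at 57.2 to 71.4 in N-mDCs.

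B-cell genes, 5 of 6 tested, were lower in T-DCs, 4 against N-mDCs and 2 against T-mDCs, and none was called in T-mDCs against N-mDCs. Of all 12746 tested genes, 1318 were called lower in T-DCs against N-mDCs and 1120 against T-mDCs. Cd79a and Cd79b, chains of the B-cell receptor, were at 92.5 to 135 and 47.5 to 90.3 FPKM in N-mDCs and at 7.82 to 42.7 and 13.1 to 33.6 in T-DCs. T-cell genes, 5 of 7 tested, were called in no comparison, and Trbc2 and Lck were at 1.61 to 28.3 and 0.57 to 11.8 FPKM over all samples. Of 10 cDC genes, 8 were called against N-mDCs and 8 against T-mDCs, all with T-DCs lower (at least 6 and 5 without any 1 library). Beside them stand the same 1318 and 1120 of all 12746 tested genes. The sets of 8 cDC genes were not identical. Clec10a did not pass against T-mDCs (limma adjusted p = 0.545), and Irf8 did not pass against N-mDCs (adjusted p = 0.0534). Between T-mDCs and N-mDCs 1 cDC gene was called, Cd209a, with T-mDCs lower, beside 2.21% of all tested genes in either direction. No cDC gene was called in that last comparison without any 1 of the N-mDC or T-mDC samples, with T-mDC samples 2 and 3 averaged, with a pseudocount of 0.1, with no filter, with TPM or with the replicate block, while array weights gave 4 higher and 3 lower. Irf8, a transcription factor of type 1 cDCs, was at 26.3 to 90.2 FPKM in T-DCs and 101 to 181 in the cDC groups.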
